A study of Homo sapiens with 16 samples.

Results

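Integrin chains and laminin chains were the 33 genes whose symbol in the deposited tables is that of an integrin alpha or beta chain with a numbered name (ITGA1, ITGB8, ITGA2B and so on), ITGAV, or a laminin alpha, beta or gamma chain. They comprised 13 integrin alpha chains, 8 integrin beta chains and 12 laminin chains, of 20314 genes in the U251 tables and 20626 in the U343 tables. They were found by symbol, and the rule itself uses no measured value. U251 and U343 are established human glioblastoma cell lines. Each line was transfected with a miR-137 mimic or, as control, with a control mimic, so that every group carried a mimic at 25 nM, and RNA was taken 48 hours later. RNASeq measured total RNA depleted of ribosomal RNA, and RIPSeq measured RNA recovered from cell extract with antibodies to poly(A)-binding protein (PABP), a protein that coats the tails of messenger RNAs. Cell line, assay and transfection gave 8 groups with 2 libraries in each, and each line and assay formed an experiment of 2 control and 2 miR-137 libraries. The U251 libraries were primed with random hexamers and the U343 libraries were made with TotalScript, so that cell line and library kit cannot be told apart. Nothing in the labels says that the 2 libraries of a group came from separate cultures, so all p-values measure the spread between these libraries, which may be technical.

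Integrins are receptors at the cell surface, each built from an alpha and a beta chain, that hold cells to the matrix around them and pass signals to the actin cytoskeleton through talin, kindlin and focal adhesion kinase. The alpha chain largely sets the ligand: some bind laminin, some collagen, and others the RGD motif of fibronectin and vitronectin. Laminins are trimers of an alpha, a beta and a gamma chain and form the sheet of the basement membrane. Glioma cells use both to move along blood vessels and white matter. miR-137 is a microRNA enriched in neurons, and a microRNA lowers messenger RNAs that pair with its seed. The mature strand of the RefSeq microRNA table is shown because it is the agent applied, with the seed (bases 2 to 8) in capitals; it lies on the minus strand at chr1:98046091-98046113 of GRCh38.p14.
hsa-miR-137-3p: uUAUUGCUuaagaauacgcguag
A messenger RNA that pairs with this seed carries AGCAAUA. The table held 1 mature microRNA with the seed. Whether the 33 genes carry the match in their transcripts was not analysed here.

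The libraries held from 10156675 to 45134766 counted reads, of which the 33 genes took between 0.244% and 0.626%. The control libraries of U251 RIPSeq stood far apart: over the chains, the median absolute log2 ratio between them was 0.74, against 0.0875 between the miR-137 libraries of that experiment. In U343 RNASeq the miR-137 libraries differed more than the controls over all genes (mean chi-square per gene 144.5 against 13.97). Over the chains, the median absolute log2 ratio there was 0.251 between the miR-137 libraries and 0.220 between the controls. Of 12 glioma and astrocyte markers, 9 to 11 reached a mean of 1 CPM (reads per 1000000 reads of the library, after scaling) in every group, while AQP4 was at 0 reads in U251 control total RNA. Their summed level in U251 RNASeq was 12420 to 12820 CPM in the controls and 6056 to 6303 CPM after miR-137. VIM held most of this sum, at 7671 and 8718 CPM in the controls and 3362 and 3826 CPM after miR-137. The groups overlapped for SOX2, SLC1A3 and PTPRZ1, and SOX9 was higher after miR-137. Leukocyte markers summed to at most 7.55 CPM in any library. Of 5 epithelial markers, KRT5 and CDH1 reached a mean of 1 CPM in every U343 group, and KRT19 did so in every U251 group. The list summed to between 418.1 and 1486 CPM in U343, against 3.96 to 16.44 CPM in U251. The median log2 fold change of 12 interferon-stimulated genes lay between 5.12 and 6.53 in the 4 experiments, and edgeR called 12 of them higher in U251 RNASeq, 10 in U251 RIPSeq, 0 in U343 RNASeq, where their median was 5.12, and 11 in U343 RIPSeq. The part of these markers in the results below was not tested.

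The first question was which chains changed with the miR-137 mimic in each experiment. In U251 total RNA, ITGAV, ITGB1, ITGB3, ITGB4 and LAMA1 fell, and ITGA2, ITGA5, ITGA6, ITGA7, ITGB5, ITGB8, LAMA5, LAMB1 and LAMB2 rose. In U343 total RNA, ITGAV and ITGB8 fell and ITGA3, ITGA7 and ITGB3 rose. In U343 PABP-bound RNA 9 chains fell and 10 rose. ITGAV was lower in the miR-137 libraries of all 4 experiments, whereas ITGB8 was higher with miR-137 in both U251 experiments and lower in both U343 experiments. A chain was called when the quasi-likelihood test of edgeR, fitted to all genes of the experiment, gave an adjusted p (Benjamini-Hochberg over all genes tested) under 0.05.

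Of the 33 chains, 26 had enough reads to be tested in U251 RNASeq and 14 were called, 5 lower and 9 higher, where 57.7% of all genes tested were called (29% lower and 28.7% higher). The share of chains called was thus near that of all genes. The median log2 fold change of the tested chains was 0.43, against 0.02 over all genes, and the median absolute value was 0.89 against 0.52. With upper-quartile scaling the split became 3 lower and 14 higher, and the median of all genes moved to 0.16. A joint fit of the 8 U251 libraries called 9 chains and lost ITGAV, ITGA6, ITGB1, ITGB3 and ITGB5. In U343 RNASeq 5 of 26 tested chains were called, 2 lower and 3 higher, with 20% of all genes called (11.7% lower and 8.31% higher). All 5 calls were lost without control library 1 or without control library 2, while 14 chains were called without miR-137 library 1 and 10 without miR-137 library 2.

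In U343 RIPSeq 19 of 26 tested chains were called, 9 lower and 10 higher, with 56.3% of all genes called (27.8% lower and 28.5% higher), and the median absolute log2 fold change was 0.65 against 0.42 over all genes. DESeq2 called 17 chains there, 10 lower and 7 higher. In U251 RIPSeq edgeR called 0 of 29 tested chains, with 1.21% of all genes called (0.263% lower and 0.944% higher), although 11 had an unadjusted p under 0.05 and DESeq2 called 5. Those 5 were ITGAV, ITGB1 and ITGB4 with lower levels after miR-137, and ITGA2 and ITGB8 with higher levels. Without control library 1, edgeR called 19 chains there, and without control library 2 it called 27. The calls in U251 RIPSeq thus varied with the control libraries kept and with the test used, and the cause was not tested.

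**Figure D1:**
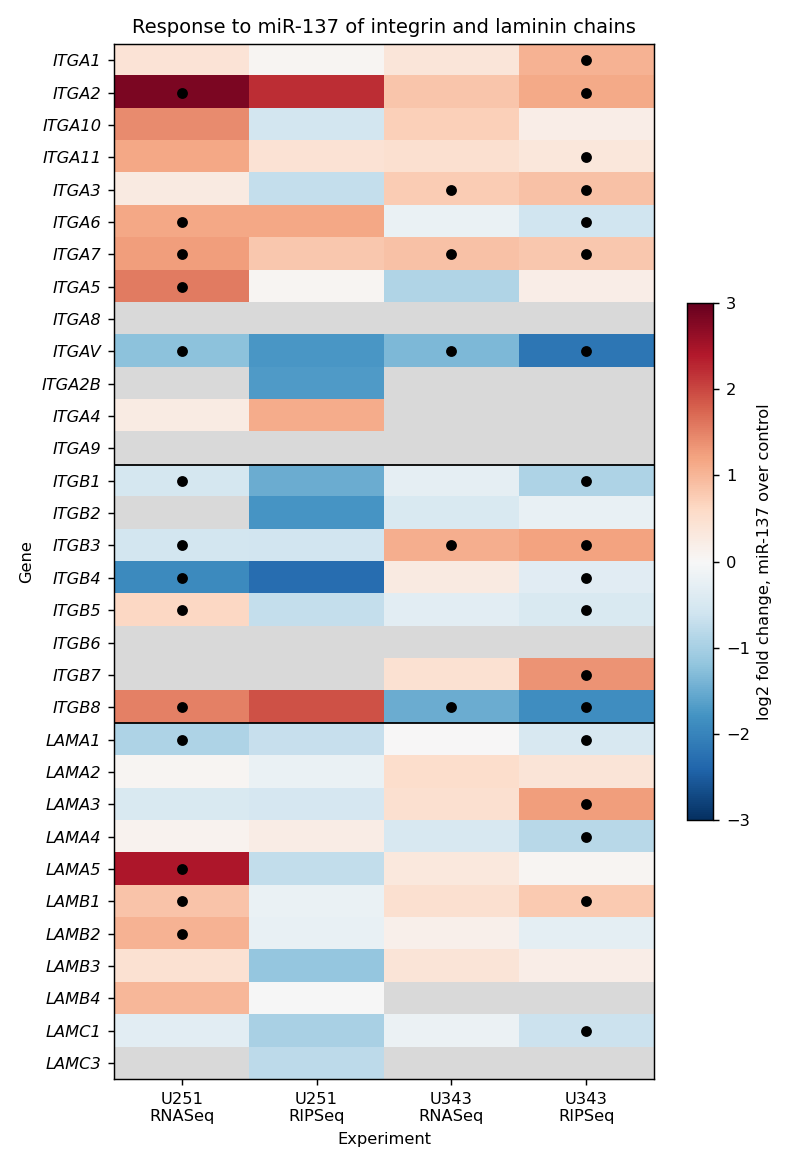
Log2 fold change (miR-137 over control) of 32 of the 33 genes (rows) in the 4 experiments (columns), from blue (lower after miR-137) through white to red (higher). Grey cells had too few reads to be tested, a black dot marks an adjusted p under 0.05, and horizontal lines divide integrin alpha, integrin beta and laminin chains; ITGAV is blue in all 4 columns and ITGB8 is red in U251 and blue in U343.

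ITGAV encodes the alpha-V chain, which pairs with several beta chains to bind RGD ligands such as vitronectin. In U251 RNASeq its level was 386.4 and 366 CPM in the control libraries and 178.7 and 142.7 CPM in the miR-137 libraries. In U343 RNASeq it was 355.1 and 312.4 CPM against 134.3 and 126.9 CPM. Both total RNA experiments thus had every miR-137 library below every control library. ITGAV fell 2.34-fold in U251 RNASeq (log2 fold change −1.23, SE 0.14, adjusted p = 9.8e-06) and 2.56-fold in U343 RNASeq (−1.35, SE 0.11, adjusted p = 0.00747).

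In PABP-bound RNA of U343, ITGAV was at 176.8 and 145.4 CPM in the control libraries and at 39.27 and 32.83 CPM after miR-137. This 4.47-fold fall (log2 fold change −2.16, SE 0.13, adjusted p = 1.2e-05) was the fall of greatest size among the 26 chains tested in that experiment. In U251 RIPSeq the control libraries held 150 and 474.5 CPM and the miR-137 libraries 94.68 and 91.67 CPM. The groups did not overlap there either, but the control libraries differed by more than the lower one differed from the miR-137 libraries, and the log2 fold change of −1.74 (SE 0.59) did not pass (adjusted p = 0.21).

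ITGB8 encodes the beta-8 chain, which pairs only with the alpha-V chain and releases active TGF-beta from its latent form. In U251 RNASeq it was at 202.8 and 196.8 CPM in the control libraries and at 613.5 and 527 CPM after miR-137. In U343 RNASeq it was at 844.8 and 863.4 CPM in the control libraries and at 309.1 and 305.2 CPM after miR-137. The level thus rose 2.85-fold in U251 (log2 fold change 1.51, SE 0.14, adjusted p = 1.2e-06) and fell 2.78-fold in U343 (−1.48, SE 0.08, adjusted p = 0.00647). In neither line did the groups overlap.

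The PABP-bound level of ITGB8 had the same sign as its total level in each line. In U343 RIPSeq the control libraries held 588.7 and 516.6 CPM and the miR-137 libraries 154.1 and 149.7 CPM, a 3.64-fold fall (log2 fold change −1.86, SE 0.11, adjusted p = 9.9e-06). In U251 RIPSeq the control libraries held 50.66 and 140.8 CPM and the miR-137 libraries 369.6 and 352 CPM. Both U251 miR-137 libraries lay above both controls, but the log2 fold change of 1.91 (SE 0.53) did not pass (adjusted p = 0.164).

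**Figure D2:**
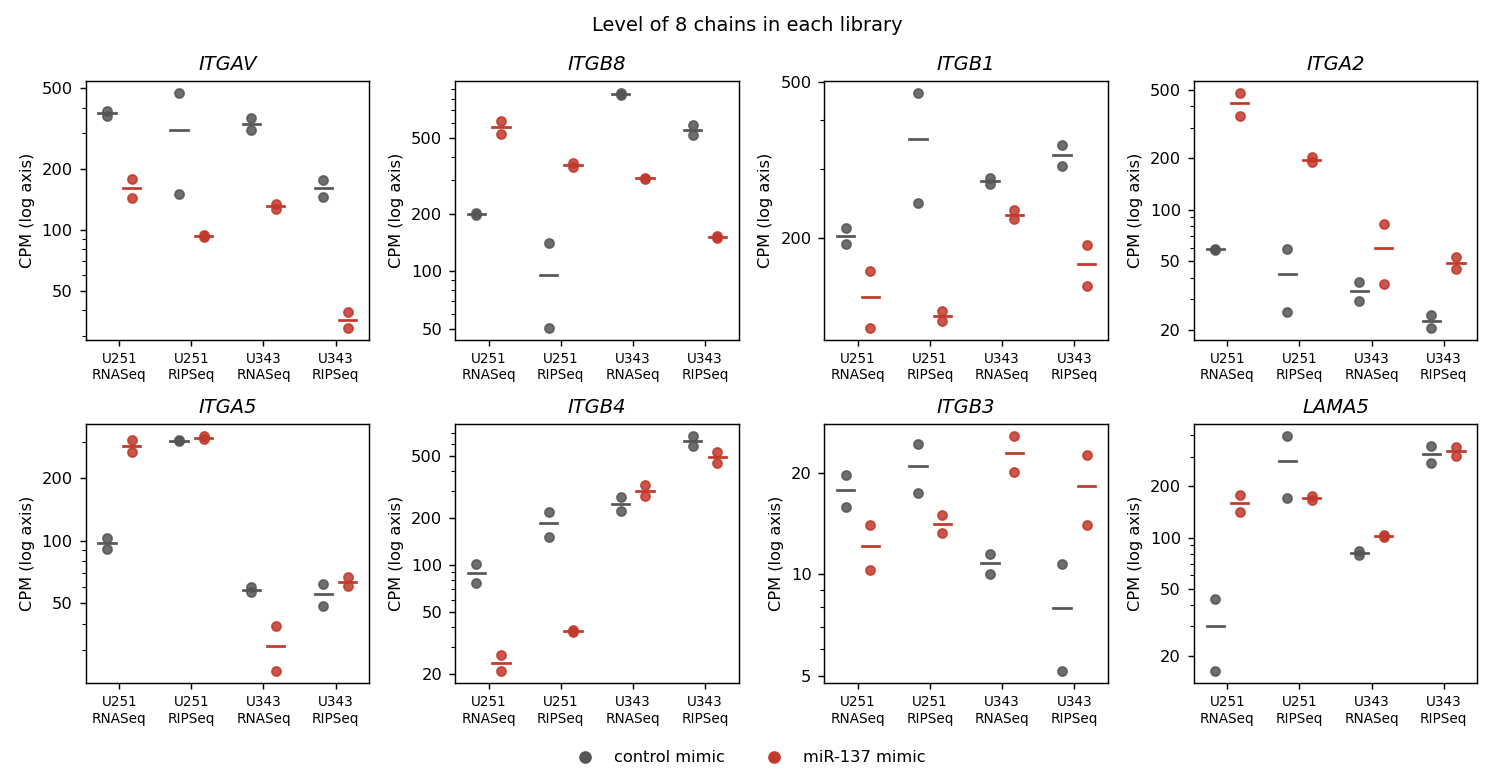
Level (CPM, log axis) of 8 chains in every library of the 4 experiments; points are libraries, grey for the control mimic and red for the miR-137 mimic, and short lines are group means of 2 libraries. ITGAV is below the controls after miR-137 in all experiments, ITGB8 lies above them in U251 and below them in U343, and the grey points of U251 RIPSeq stand apart.

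Among the other beta chains, ITGB4 and ITGB3 also moved differently in the lines. ITGB4, which pairs with the alpha-6 chain and anchors epithelial cells to laminin in hemidesmosomes, was at 101.9 and 76.77 CPM in the control libraries of U251 RNASeq and at 21.03 and 26.45 CPM after miR-137. It fell 3.76-fold (log2 fold change −1.91, SE 0.17, adjusted p = 7.5e-07). In U251 RIPSeq ITGB4 was at 219.9 and 151.1 CPM in control cells and 37.37 and 38.63 CPM after miR-137, with a log2 fold change of −2.29 (SE 0.30) that stood just outside the threshold (adjusted p = 0.0559). No other chain tested in U251 RIPSeq had a smaller adjusted p. In U343 RNASeq ITGB4 was at 221.1 and 273.6 CPM against 275.8 and 325.3 CPM (log2 fold change 0.28, SE 0.16, adjusted p = 0.263). In U343 RIPSeq it was at 583.7 and 672 CPM against 532.5 and 449.4 CPM, a fall of small size (log2 fold change −0.35, SE 0.13, adjusted p = 0.0464). This call was lost with no filter beyond 1 read and with a joint fit of the 8 U343 libraries. It was also lost without control library 1, control library 2 or miR-137 library 2.

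ITGB3, the vitronectin receptor chain that also pairs with the platelet alpha chain, was at 19.74 and 15.9 CPM in U251 control total RNA and at 13.99 and 10.3 CPM after miR-137. In U343 total RNA it was at 10.05 and 11.53 CPM against 20.18 and 25.82 CPM. It fell in U251 (log2 fold change −0.55, SE 0.19, adjusted p = 0.0206). This call was lost under DESeq2, with upper-quartile scaling, with no filter beyond 1 read and with the joint fit of the 8 U251 libraries. It was also lost without control library 1 or miR-137 library 2. In U343 ITGB3 rose (1.09, SE 0.18, adjusted p = 0.023), a call lost with the joint fit of the 8 U343 libraries and without either control library. PABP-bound ITGB3 rose in U343 from 10.75 and 5.164 CPM to 22.64 and 14.02 CPM (log2 fold change 1.20, SE 0.33, adjusted p = 0.0174), a call lost under DESeq2 and without control library 2 or miR-137 library 1. In U251 RIPSeq it was at 17.5 and 24.41 CPM against 15.01 and 13.32 CPM (log2 fold change −0.57, SE 0.29, adjusted p = 0.357).

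ITGB5, a further partner of alpha-V, was at 65.67 and 49.98 CPM in U251 control total RNA and at 88.89 and 90.62 CPM after miR-137, a rise of 1.55-fold (adjusted p = 0.00211) that was lost without control library 2. In U343 total RNA it was at 311.8 and 376.2 CPM against 271.6 and 284.3 CPM (log2 fold change −0.31, SE 0.13, adjusted p = 0.16). Its PABP-bound level fell in U343 from 283.2 and 260.9 CPM to 216.2 and 178.1 CPM (log2 fold change −0.46, SE 0.12, adjusted p = 0.0105), which was lost without control library 1. In U251 RIPSeq it was at 193.8 and 139.6 CPM against 100.1 and 103.8 CPM (log2 fold change −0.71, SE 0.27, adjusted p = 0.247). The sign in U251 was thus opposite in total and PABP-bound RNA.

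ITGB1, the beta chain shared by the collagen, laminin and fibronectin receptors, had a negative log2 fold change in each experiment. It fell in U251 RNASeq (log2 fold change −0.52, SE 0.16, adjusted p = 0.0115) and in U343 RIPSeq (−0.93, SE 0.13, adjusted p = 0.00073). The U251 call was lost with upper-quartile scaling, with no filter beyond 1 read and with the joint fit of the 8 U251 libraries. It was also lost without miR-137 library 2. In U343 RIPSeq the control libraries held 346.1 and 306.1 CPM and the miR-137 libraries 191.9 and 151.2 CPM, with no overlap. In U343 RNASeq (−0.28, adjusted p = 0.0994) and U251 RIPSeq (−1.50, adjusted p = 0.143) it did not pass. The RefSeq gene table lists 1 pseudogene by symbol for each of ITGB1 and LAMB2, and reads that match both copies cannot be assigned with certainty. ITGB7, a leukocyte chain, was tested in U343 only, at 0.953 and 1.205 CPM in the RIPSeq controls and 2.69 and 2.808 CPM after miR-137 (log2 fold change 1.35, SE 0.20, adjusted p = 0.00095). In U343 RNASeq ITGB7 was at 1.841 and 1.452 CPM against 2.778 and 1.745 CPM, and the groups overlapped.

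Of the collagen-binding alpha chains, ITGA2 had the rise of greatest size of any chain in U251 total RNA. It was at 59.28 and 58.42 CPM in the control libraries and at 479.5 and 352.5 CPM after miR-137, a 7.07-fold rise (log2 fold change 2.82, SE 0.16, adjusted p = 1.6e-08). In U343 RIPSeq it rose from 24.16 and 20.48 CPM to 53.15 and 44.81 CPM (log2 fold change 1.13, SE 0.12, adjusted p = 0.00017). In U251 RIPSeq ITGA2 was at 25.22 and 59.24 CPM against 202 and 188.3 CPM (2.21, SE 0.47, adjusted p = 0.117). In U343 RNASeq it was at 37.61 and 29.27 CPM against 36.89 and 82.93 CPM, where miR-137 library 1 lay between the controls and library 2 above both (0.84, SE 0.42, adjusted p = 0.222).

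ITGA1, a collagen receptor chain whose gene interval in hg18 (chromosome 5, 52119893 to 52285242) overlaps that of PELO by 14317 bases, so that some of its reads are uncertain, rose in U343 RIPSeq from 3.48 and 3.221 CPM to 7.761 and 6.051 CPM (log2 fold change 1.04, SE 0.17, adjusted p = 0.00137). In the other experiments it did not pass: control and miR-137 libraries stood at 6.835 and 7.83 against 10.47 and 9.053 CPM in U251 RNASeq. In U343 RNASeq they stood at 7.081 and 4.118 against 5.722 and 8.772 CPM, and in U251 RIPSeq at 3.389 and 7.553 against 5.283 and 6.254 CPM, and both pairs of groups overlapped. ITGA11, a collagen receptor chain of mesenchymal cells, rose in U343 RIPSeq (log2 fold change 0.35, SE 0.11, adjusted p = 0.0338) and did not pass elsewhere. This call was lost under DESeq2, with the joint fit of the 8 U343 libraries and without any 1 of the 4 libraries. ITGA10, the collagen receptor chain of cartilage, passed in no experiment and lay between 0.0639 and 2.287 CPM in all libraries.

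The laminin-binding alpha chains were ITGA3, ITGA6 and ITGA7. ITGA7, the laminin receptor chain of muscle, rose in 3 of the 4 experiments. It was at 4.216 and 2.875 CPM in U251 control total RNA and 7.67 and 9.142 CPM after miR-137 (log2 fold change 1.25, SE 0.23, adjusted p = 0.00049). Its U343 RNASeq level was 34.02 and 40.04 CPM against 62.53 and 74.61 CPM (0.89, SE 0.14, adjusted p = 0.0234), and its U343 RIPSeq level was 45.07 and 45 CPM against 80.43 and 76.13 CPM (0.80, SE 0.08, adjusted p = 0.00011). In U251 RIPSeq the levels were 18.87 and 10.09 CPM against 24.46 and 26.71 CPM (0.82, SE 0.38, adjusted p = 0.321). Every miR-137 library lay above every control library of its experiment.

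ITGA6, the partner of ITGB4, rose in U251 total RNA from 79.66 and 76.89 CPM to 202.9 and 143.5 CPM (log2 fold change 1.15, SE 0.16, adjusted p = 3.9e-05). Its U343 RNASeq level was 62.47 and 74.57 CPM against 49.5 and 69.72 CPM, with overlap (−0.20, adjusted p = 0.522). Its PABP-bound level fell in U343 from 69.12 and 55.48 CPM to 43.19 and 38.86 CPM (−0.60, SE 0.12, adjusted p = 0.0036). In U251 RIPSeq it was at 40.06 and 119.9 CPM against 180.9 and 180.2 CPM (1.17, SE 0.56, adjusted p = 0.333). ITGA6 and ITGB4, whose chains form one receptor, thus moved in opposite directions in U251 total RNA.

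ITGA3 rose in U343 RNASeq (log2 fold change 0.76, SE 0.09, adjusted p = 0.0128) and in U343 RIPSeq (0.87, SE 0.21, adjusted p = 0.00923), the latter lost without control library 2. Its U343 RNASeq level was 1275 and 1404 CPM in the controls and 2167 and 2374 CPM after miR-137. In U251 it did not pass, at a log2 fold change of 0.26 in total RNA and −0.72 in PABP-bound RNA. The difference between the lines in the response of total RNA did not pass (0.49, SE 0.17, adjusted p = 0.0629).

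ITGA5, the alpha chain of the main fibronectin receptor, was at 102.8 and 91.82 CPM in U251 control total RNA and at 305 and 268 CPM after miR-137. This was a 2.94-fold rise (log2 fold change 1.56, SE 0.14, adjusted p = 6.9e-07). In U251 RIPSeq ITGA5 was at 307 and 301.1 CPM against 308.2 and 320 CPM, a log2 fold change of 0.05 (SE 0.20, adjusted p = 0.919). Its U343 RNASeq level was 56.52 and 59.89 CPM against 23.65 and 38.79 CPM, both below the controls without passing (−0.90, SE 0.26, adjusted p = 0.0777), although DESeq2 called it. In U343 RIPSeq it was at 62.36 and 48.76 CPM against 60.4 and 66.66 CPM (0.19, SE 0.12, adjusted p = 0.224). ITGA5 was thus higher after miR-137 in U251 total RNA, with almost no difference in the PABP-bound RNA of the same line.

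ITGA4, which binds fibronectin and VCAM1, was tested in U251 alone, with log2 fold changes of 0.25 in RNASeq (adjusted p = 0.211) and 1.11 in RIPSeq (adjusted p = 0.315). Its gene interval overlaps that of CERKL by 1066 bases. The remaining alpha chains were scarce. ITGA8 had 10 reads over the 8 U251 libraries and 8 over the 8 U343 libraries. ITGA9 had 43 and 48 reads, and ITGA2B, the platelet chain, had 62 and 49. Among the beta chains, ITGB6 had 57 and 44 reads in the lines, and the leukocyte chain ITGB2 had 74 reads in U251 and 2627 in U343. ITGA8, ITGA9 and ITGB6 were tested in no experiment, and ITGA2B and ITGB2 passed in none.

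Of the laminin alpha chains, LAMA5, a main chain of the adult basement membrane, rose 5.35-fold in U251 total RNA. The control libraries held 43.57 and 16.33 CPM and the miR-137 libraries 140.7 and 179.1 CPM (log2 fold change 2.42, SE 0.30, adjusted p = 1.8e-05). In U251 RIPSeq the levels were 397 and 171.5 CPM against 174.8 and 167.5 CPM, and miR-137 library 1 lay between the controls (−0.73, SE 0.44, adjusted p = 0.432). In U343 LAMA5 was at 79.08 and 83.38 CPM against 100.1 and 103.2 CPM in RNASeq (0.32, adjusted p = 0.0728). In U343 RIPSeq it was at 275.8 and 344.5 CPM against 301.4 and 343.2 CPM (0.06, adjusted p = 0.746). LAMA5 therefore passed in 1 experiment, and its controls there lay further apart than those of the typical chain, whose absolute log2 ratio had a median of 0.211.

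LAMA3, the alpha chain of the epithelial laminin, rose in U343 RIPSeq from 0.665 and 0.787 CPM to 1.767 and 1.685 CPM (log2 fold change 1.25, SE 0.22, adjusted p = 0.00209), from 30 and 32 reads to 69 and 66. This call was lost with the joint fit of the 8 U343 libraries. It passed in no other experiment, with 1.191 and 1.241 CPM against 0.760 and 2.641 CPM in U343 RNASeq. In U251 it was at 2.747 and 2.691 CPM against 2.437 and 1.509 CPM in total RNA and at 2.531 and 2.291 CPM against 2.029 and 1.361 CPM in PABP-bound RNA. LAMA1, a laminin chain of the embryo, fell in U251 RNASeq (−0.93, SE 0.18, adjusted p = 0.00065) and in U343 RIPSeq (−0.48, SE 0.10, adjusted p = 0.00588). LAMA4, found around vessels, fell in U343 RIPSeq (−0.84, SE 0.14, adjusted p = 0.00132), a call lost with a joint fit of the 8 U343 libraries. Beside this, 6 endothelial markers summed to 58.7 and 66.35 CPM in the control libraries of that experiment and to 37.1 and 38.45 CPM after miR-137. These markers did not move together. CDH5 (30.9 and 20.46 against 10.12 and 7.302 CPM), TEK and ERG were lower after miR-137. VWF (5.808 and 8.017 against 13.35 and 14.55 CPM), KDR and PECAM1 were higher. The part of these markers in the LAMA4 value was not tested. LAMA2, the muscle laminin chain, passed in no experiment.

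Of the laminin beta chains, LAMB2 rose in U251 total RNA from 43.5 and 30.65 CPM to 83.83 and 69.76 CPM (log2 fold change 1.05, SE 0.17, adjusted p = 0.00014). Elsewhere LAMB2 did not pass. It was at 89.91 and 52.41 against 61.07 and 60.92 CPM in U251 RIPSeq, at 684.5 and 635.9 against 780.7 and 679.8 CPM in U343 RNASeq, and at 765.8 and 826.3 against 680.3 and 621.5 CPM in U343 RIPSeq. LAMB1, the common beta chain, rose in U251 RNASeq (0.85, SE 0.15, adjusted p = 0.00033) and in U343 RIPSeq (0.79, SE 0.11, adjusted p = 0.00063). LAMC1, the gamma chain of most laminins, fell in U343 RIPSeq (−0.64, SE 0.13, adjusted p = 0.00482), which was lost without control library 1, and passed in no other experiment, though its log2 fold change was negative in all 4. LAMB3, LAMB4 and LAMC3 passed in none, and LAMC3 had 89 reads in U251 and 50 in U343.

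The study's own rule applies Fisher's exact test to each of the 4 ways to pair control with miR-137 libraries, and all must give an odds ratio above 2 with an adjusted p below 0.001; it has no model of the spread between replicates. It placed ITGB4 lower and ITGA2, ITGA5, ITGA6, ITGA7, ITGB8 and LAMA5 higher in U251 RNASeq, where 2.21% of all genes were lower and 6.14% higher. With totals scaled by TMM (trimmed mean of M values) the split there was 2 lower and 4 higher. In U251 RIPSeq it placed ITGB4 lower and ITGA2 and ITGB8 higher (1.49% and 3.47% of all genes). In U343 RNASeq it placed ITGAV and ITGB8 lower and 0 chains higher (2.88% and 1.51%), and in U343 RIPSeq it placed ITGAV and ITGB8 lower and ITGB7 and LAMA3 higher (3.4% and 4.83%). ITGAV was placed lower in U343 but not in U251, where it fell short of an odds ratio of 2 in at least 1 pair of each assay. With TMM-scaled totals, or with an odds ratio above 1.5, it was placed lower in RNASeq of both lines.

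Whether the response differed between the lines was tested as the interaction of cell line and transfection. In total RNA 9 of 29 tested chains were called, where 25.2% of all genes were called (12.7% lower and 12.5% higher). ITGA2, ITGA5, ITGA6, ITGB5, ITGB8, LAMA5 and LAMB2 responded lower in U343 than in U251, and ITGB3 and ITGB4 responded higher. DESeq2 called 7 lower and 4 higher. The difference of responses (U343 minus U251) was greatest in size for ITGB8, at −3.00 on the log2 scale (SE 0.17, adjusted p = 0.00018), followed by −2.47 for ITGA5 (SE 0.30, adjusted p = 0.00174) and 2.18 for ITGB4 (SE 0.27, adjusted p = 0.00177). ITGAV, with a difference of −0.14 (SE 0.20, adjusted p = 0.667), was among the 20 chains not called.

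In that interaction the number of called chains was 5 without U251 control library 2, without U251 miR-137 library 1 or without U343 control library 2. ITGB3, ITGB4, ITGA5 and ITGB8 were called under every alternative and without each library in turn. In PABP-bound RNA 3 of 31 tested chains were called, where 3.28% of all genes were called (1.22% lower and 2.06% higher). They included ITGB8 (−3.73, SE 0.57, adjusted p = 0.0239) and ITGB4 (1.99, SE 0.32, adjusted p = 0.0258). Without any 1 of the U343 libraries or of the U251 miR-137 libraries 0 were called, and 15 and 17 were called without U251 control library 1 and 2.

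**Figure D3:**
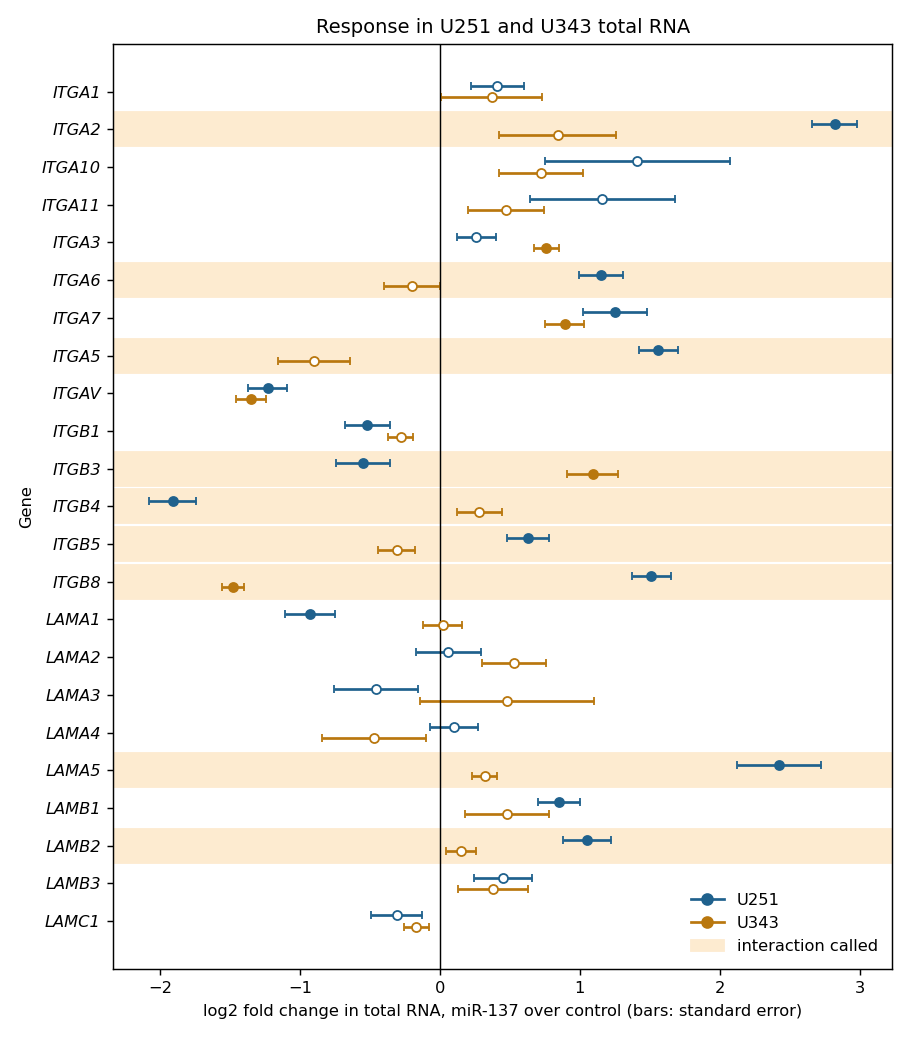
Log2 fold change in total RNA (miR-137 over control, with standard error bars) of chains tested in both lines, blue for U251 and ochre for U343; filled points passed an adjusted p of 0.05 within the line, and shaded rows are chains whose interaction of line and transfection passed. ITGB8 stands at 1.51 in U251 and −1.48 in U343, while the ITGAV points lie at −1.23 and −1.35.

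Whether PABP-bound RNA responded differently from total RNA was tested within each line. In U251 0 of 29 tested chains were called by edgeR, with 0.134% of all genes called (0.0281% lower and 0.106% higher); 9 had an unadjusted p under 0.05 and DESeq2 called 4, namely ITGA5, ITGB5, LAMA5 and LAMB3, each with a lower response in PABP-bound RNA. Without U251 RIPSeq control library 1, 12 chains were called, and without control library 2, 17. In U343 0 of 27 were called, with 0.00649% of all genes called; 10 had an unadjusted p under 0.05, and DESeq2 called ITGAV and ITGB1 with a lower and ITGA5 with a higher response in PABP-bound RNA. Without miR-137 library 2 of U343 RNASeq, 7 were called.

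Levels in control cells were also compared between the lines, where cell line and library kit cannot be told apart. In control total RNA 25 of 29 tested chains were called between U343 and U251, with 84.8% of all genes called (39.9% lower and 44.9% higher), 10 lower and 15 higher in U343. The share of chains called was near that of all genes. The median of all genes was itself 0.10 on the log2 scale and moved to 0.21 with upper-quartile scaling. Higher in U343 were LAMB2 (18.5-fold), ITGA7 (10.9-fold), LAMB3 (7.89-fold), ITGB5 (6.18-fold), ITGB8 (4.44-fold) and ITGB4 (2.87-fold). Lower in U343 were LAMA4 (11.9-fold), LAMA2 (3.58-fold), LAMB1 (3.13-fold) and ITGA2 (1.69-fold). ITGAV, ITGA1 and ITGA6 were among the 4 not called, at log2 differences between −0.33 and −0.12.

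Chains with few reads in 1 line were compared by summed reads with an exact (Clopper-Pearson) 95% interval, which covers counting error only. ITGA4 had 2240 reads in the U251 controls and 6 in the U343 controls, a ratio of 944 (433 to 2576) after scaling. ITGB2, with 6 reads in the U251 and 859 in the U343 controls, had a ratio of 56.6 (25.9 to 154.7) in the other direction, and ITGA11 had 12 and 447 (14.7, interval 8.35 to 28.7). ITGA10 and ITGB7 were 4.35 (2.2 to 9.79) and 4.61 (2.56 to 9.14) times higher in U343, and LAMB4 was 6.32 (2.67 to 16.6) times higher in U251. Beside the higher ITGB4 and LAMB3 of U343, chains known from epithelium, KRT5 was at 1284 and 837.7 CPM in the U343 control total RNA libraries. CDH1 was at 120 and 65.67 CPM there, whereas U251 had at most 0.0639 CPM of KRT5 and 0.192 CPM of CDH1. KRT19 went the other way, at 3.577 and 4.343 CPM in U251 and 0.108 and 0.185 CPM in U343. EPCAM and KRT14 stayed at or below 0.128 CPM in both lines. LAMA3, of the epithelial laminin, was lower in U343 (log2 difference −1.11). Beside ITGB2 and ITGB7, the leukocyte list summed to 1.278 and 1.61 CPM in U343 control total RNA and to 1.285 and 2.938 CPM in U251, and CD3D and MS4A1 were at 0 in both lines. The part of these markers in the differences was not tested. In bulk RNA, a smaller share of cells with a transcript and less of it per cell cannot be told apart.

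**Figure D4:**
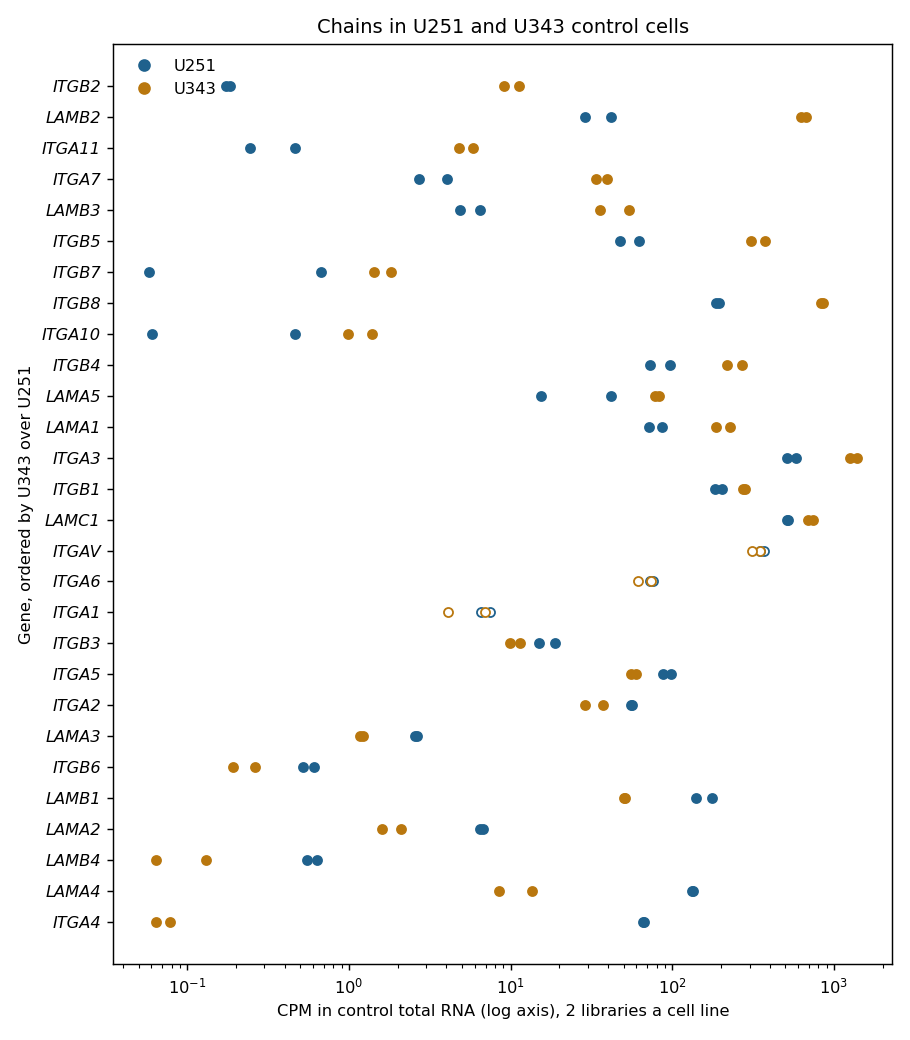
Level (CPM, log axis) of tested chains in the control total RNA libraries of U251 (blue) and U343 (ochre), ordered by the ratio of the lines; each point is 1 of 2 libraries a line, and open points mark chains without a call. ITGB2 stands at the top, higher in U343, and ITGA4 at the bottom, higher in U251; levels of different genes are not per transcript length and are not comparable.

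The recovery of each chain with PABP antibodies was read from control cells as PABP-bound against total RNA, relative to the typical gene. In U343 10 of 26 tested chains were called, 4 lower and 6 higher, with 48.6% of all genes called (24.2% lower and 24.4% higher). LAMA5 had 78.65 CPM on average in total RNA and 323.4 CPM in PABP-bound RNA, a log2 ratio of 2.04 (SE 0.11, adjusted p = 2.2e-05), and ITGB4 a log2 ratio of 1.45 (SE 0.12, adjusted p = 0.00012). ITGA7, ITGA11, ITGB1 and LAMB2 were also higher in PABP-bound RNA. The calls of ITGA7, ITGB1 and LAMB2 (log2 ratios 0.39, 0.33 and 0.38) did not hold for every library left out, while that of ITGA11 (1.05) did. ITGAV was lower (log2 ratio −0.94, SE 0.11, adjusted p = 0.00051), as were ITGB8 (−0.52) and ITGA2 (−0.48). The ITGA2 call likewise did not hold for every library left out.

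In U251 7 of 27 tested chains were called, all higher in PABP-bound RNA, with 14% of all genes called (6.14% lower and 7.87% higher). LAMA5 again had the log2 ratio of greatest size, at 3.41 (SE 0.67, adjusted p = 0.0312). The log2 ratio was 2.19 for ITGA7, 2.17 for ITGA3, 2.09 for LAMB3, 1.79 for ITGA5 and 1.68 for ITGB5. Of these calls, 2 were left without RNASeq control library 1 and 0 without RNASeq control library 2, whereas 16 chains were called without RIPSeq control library 1 and 23 without RIPSeq control library 2. With no filter beyond 1 read, 0 were called. LAMA5 and ITGA7 passed as higher in PABP-bound RNA in both lines.

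**Figure D5:**
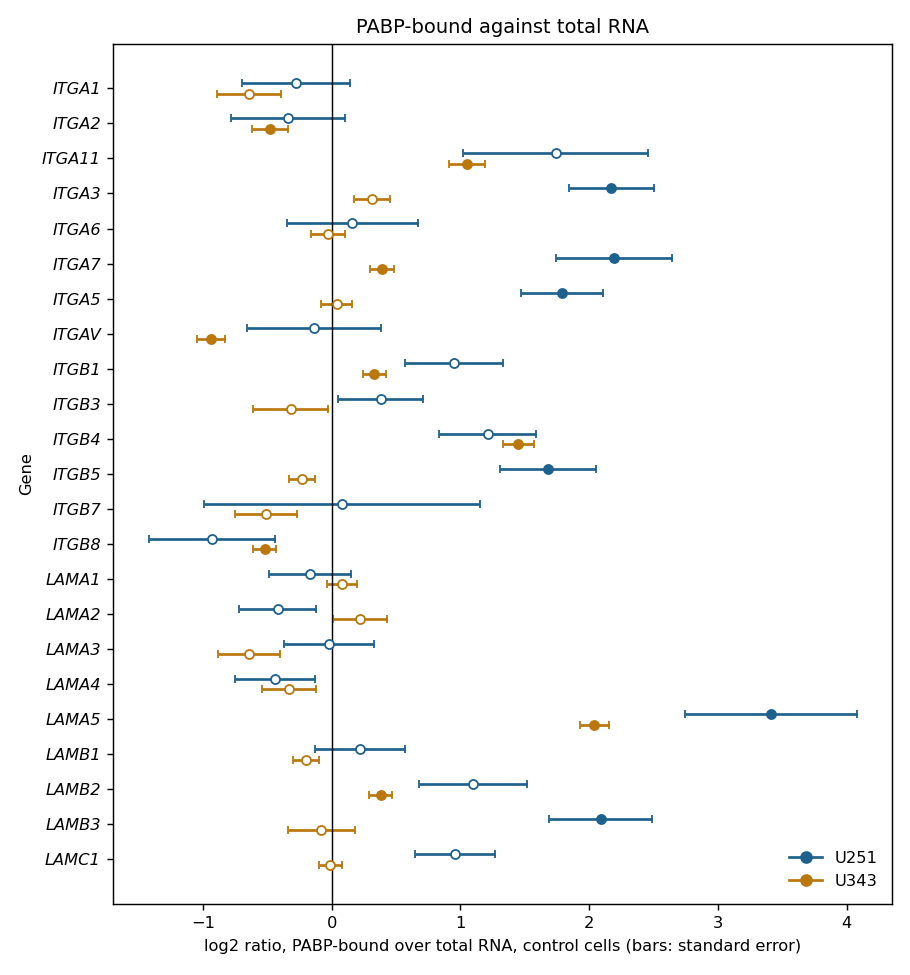
Log2 ratio of PABP-bound over total RNA in control cells (with standard error bars) for chains tested in both lines, blue for U251 and ochre for U343; filled points passed an adjusted p of 0.05. LAMA5 lies furthest right in both lines, at 3.41 and 2.04, and ITGAV stands at −0.94 in U343.

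Genes that work with the chains were read from lists chosen by function. Their calls were not examined under the alternatives or with a library left out. Of 33 genes of the integrin adhesion machinery (talins, kindlins, kinases and actin linkers), 29 were tested in U251 RNASeq, of which 13 fell and 4 rose, with a median log2 fold change of −0.25 against 0.02 over all genes, of which 29% were called lower and 28.7% higher. VCL, which encodes the actin linker vinculin, fell from 1191 and 1252 CPM to 429.1 and 384.1 CPM (log2 fold change −1.59, SE 0.15, adjusted p = 1.2e-06), and the filamin gene FLNA also fell (−0.70, adjusted p = 0.00226). In U343 RNASeq 3 of 32 fell and 7 rose, with a median of 0.26, where 11.7% of all genes were called lower and 8.31% higher. In U343 RIPSeq 6 fell and 13 rose, where 27.8% of all genes were called lower and 28.5% higher, and in U251 RIPSeq 0 of 31 passed by edgeR. CRKL, an adaptor of focal adhesions, fell in both lines in total RNA, by 0.45 in U251 (adjusted p = 0.00971) and by 0.85 in U343 (adjusted p = 0.0128) on the log2 scale. The interaction of line and transfection in total RNA called 16 of 31, 3 lower and 13 higher in U343, where 25.2% of all genes were called, VCL and FLNA being among the latter.

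Of 20 other integrin ligands, 4 of 16 tested fell and 7 rose in U251 RNASeq, and 0 of 15 fell and 3 rose in U343 RNASeq, where 57.7% and 20% of all genes were called. The fibronectin gene FN1, whose product ITGA5 binds, rose in U251 from 172.9 and 149.1 CPM to 860 and 524.6 CPM (log2 fold change 2.10, SE 0.20, adjusted p = 1.6e-06). In U343 FN1 was at most 3.348 CPM in any total RNA library, and it was called higher in U343 RIPSeq. EDIL3, a ligand of alpha-V integrins, fell in U251 from 418.9 and 381.5 CPM to 91.87 and 71.81 CPM (−2.29, SE 0.15, adjusted p = 5.9e-08). CTGF and NOV, matricellular ligands, passed as higher in all 4 experiments, with log2 fold changes of 1.41, 1.51, 1.94 and 1.81 for CTGF and 1.36, 2.41, 2.18 and 3.15 for NOV in U251 RNASeq, U251 RIPSeq, U343 RNASeq and U343 RIPSeq. Of the tested ligands, 2 of 15 fell and 8 rose in U343 RIPSeq, where 56.3% of all genes were called. In U251 RIPSeq 0 of 19 fell and 2 rose, where 1.21% of all genes were called.

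Of 17 laminin partners and basement membrane genes, all 16 in the tables were tested in total RNA of both lines, and 6 fell and 9 rose in U251 RNASeq and 4 fell and 1 rose in U343 RNASeq, beside the same 57.7% and 20% of all genes. In U343 RIPSeq 7 fell and 4 rose of 15, where 56.3% of all genes were called, and in U251 RIPSeq 0 of 16 passed. DAG1, which encodes the laminin receptor dystroglycan, fell in total RNA of both lines, from 316.3 and 331 CPM to 206.6 and 194.7 CPM in U251 (−0.69, SE 0.13, adjusted p = 0.00048) and from 431.6 and 451.2 CPM to 146.7 and 151.6 CPM in U343 (−1.57, SE 0.09, adjusted p = 0.00647). Its PABP-bound level fell in U343 (−1.65, SE 0.10, adjusted p = 1.2e-05). Of 10 membrane proteins that associate with integrins, 2 fell and 6 rose in U251 RNASeq, and 1 fell and 3 rose in U343 RNASeq, again beside 57.7% and 20% of all genes. In U343 RIPSeq 1 fell and 6 rose of 10, beside 56.3% of all genes, and in U251 RIPSeq 0 of 10 passed. PLAUR, the urokinase receptor, rose in total RNA of both lines (1.86, adjusted p = 1.2e-07 in U251 and 1.89, adjusted p = 0.0283 in U343).

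The 5 integrin alpha chains with a letter in their name other than V (ITGAL, ITGAM, ITGAX, ITGAD and ITGAE) were not among the 33 genes. Of these, 1 was tested in U251 RNASeq, where ITGAE fell, and 5 were tested in U343 RNASeq with no call. In U343 RIPSeq ITGAE and ITGAM fell of 4 tested, and in U251 RIPSeq 0 of 2 passed. Between the lines, 4 were tested in control total RNA, where 84.8% of all genes were called. ITGAL, ITGAM and ITGAX were higher in U343 and ITGAE was lower. The median log2 difference of the 4 was 4.48, against 0.10 over all genes. ITGAL, ITGAM and ITGAX had too few reads to be tested in U251 RNASeq, so the size of this median is uncertain.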

How the data were processed

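RNASeq and RIPSeq were measured in 16 libraries of U251 and U343 cells, grouped by cell line, assay and transfection from the labels. The authors deposited raw read counts per gene, made by alignment to hg18 with RMAP and counted on 1 collapsed super-transcript per RefSeq gene, with replicates kept apart. The handling of reads that match several places is not given in the sources used here. SLC35E2 stood on 2 lines of each U251 table and the first was kept. Per-sample columns left unused numbered 0. Library totals of counts lay between 10156675 and 45134766, and intervals cover counting error only.

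Each experiment was fitted to all genes kept by filterByExpr, with TMM normalization and the quasi-likelihood test of edgeR 4.0.16 (R 4.3.3), and p-values were adjusted by the Benjamini-Hochberg method over all genes tested. Interactions of line or assay with transfection, PABP-bound against total RNA, and U343 against U251 were fitted in the same way, each on the libraries concerned and with its own scaling, so that CPM of 1 library can differ between fits. Fold sizes are those of the fit. The edgeR fits of the 4 experiments and of U343 against U251 were tested on simulated data. So were the interaction of line and transfection in RNASeq and PABP-bound against total RNA of U343, but not the other fits. The study's rule was applied with Fisher's exact test. Alternatives were DESeq2 1.42.0, upper-quartile scaling, other filters (at least 1 read in any library, or a mean of at least 50 reads), fits that pooled the 8 libraries of each line, a block for replicate number and leaving out each library.

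A chain was given with all library values where it passed with an absolute log2 fold change of at least 1 in an experiment, passed in both lines in the same assay, or passed the interaction of line and transfection in RNASeq; others are given by counts and reads. The chains, gene lists and tests were chosen with earlier results of these data known. Seed matches in the transcripts and transcript lengths were not analysed here, so levels of different genes are not compared. An additional U251 replicate that the methods mention was not analysed here. Results of 1 chain enter the counts but are not reported here.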

Additional observations from a re-analysis of the deposited data

Results flagged for a closer look

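The responses below differed between U343 and U251 by the test of the difference itself (the interaction of line and transfection in edgeR, adjusted p under 0.05), given as the U343 response minus the U251 response on the log2 scale. In total RNA the difference was −3.00 for ITGB8, −2.47 for ITGA5, −2.10 for LAMA5, −1.99 for ITGA2, −1.36 for ITGA6, −0.95 for ITGB5, −0.91 for LAMB2, 1.64 for ITGB3 and 2.18 for ITGB4. ITGB8 also passed with opposite signs within each line. ITGB3 did so as well, but both of its calls within a line were lost with a joint fit of the 8 libraries of that line. The U251 call was also lost under DESeq2, with upper-quartile scaling and with no filter beyond 1 read. In PABP-bound RNA the difference was −3.73 for ITGB8 and 1.99 for ITGB4. The lines were prepared with different cDNA kits, and line and kit cannot be told apart. Groups of 2 libraries were not examined for outlying libraries.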

How the results depend on the processing

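No log2 fold change of a called chain turned its sign under any alternative that was run. The counts that follow cover only chains called in the main fits, so calls gained under an alternative are outside them. Of the values of chains under alternatives that kept all libraries, 412 kept their side of the threshold and 31 fell short of it; with 1 library left out these numbers were 321 and 95. A library left alone in its group was assumed to vary like the other groups.

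The joint fit of the 8 libraries of a line called 9 chains in U251 RNASeq (2 lower, 7 higher) and 8 in U251 RIPSeq, against 14 and 0. DESeq2 called 5 in U251 RIPSeq, 8 in U343 RNASeq, 8 in the interaction of line and transfection in RIPSeq, and 4 and 3 in the interaction of assay and transfection in U251 and U343. With no filter beyond 1 read, 0 chains were called in PABP-bound against total RNA of U251, and the U251 RNASeq split was 3 lower and 9 higher. An odds ratio over 1.5 in the study's rule gave 11, 8, 6 and 10 chains in U251 RNASeq, U251 RIPSeq, U343 RNASeq and U343 RIPSeq, against 7, 3, 2 and 4. The cause of these changes was not tested.

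The replicate block is an alternative because the numbers could not be shown to pair the libraries: with 2 pairs an experiment, the correlation of the deviations of same-numbered libraries was 0.061 in U251 RNASeq, −0.108 in U251 RIPSeq, 0.128 in U343 RNASeq and 0.421 in U343 RIPSeq, and nothing in the labels ties the numbers to a shared culture or day. With the block, 14, 5, 6 and 22 chains were called in these experiments, 10 and 1 in the interaction of line and transfection in RNASeq and RIPSeq (in RIPSeq, ITGB8 was called and ITGB4 was not), 0 in both interactions of assay and transfection, 9 and 10 in PABP-bound against total RNA of U251 and U343, and 25 between the lines. Crossing the numbers in U251 RIPSeq, an alternative chosen after seeing the data, also gave 5 chains.

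When single libraries were removed, the chains called ranged from 13 to 15 in U251 RNASeq, 0 to 27 in U251 RIPSeq, 0 to 14 in U343 RNASeq and 14 to 18 in U343 RIPSeq. The interaction of line and transfection ranged from 5 to 12 in RNASeq and 0 to 17 in RIPSeq, and that of assay and transfection from 0 to 17 in U251 and 0 to 7 in U343. PABP-bound against total RNA ranged from 0 to 23 in U251 and 7 to 11 in U343, and the lines from 23 to 25. The study's rule ranged from 7 to 10, 3 to 8, 2 to 5 and 4 to 7 chains in the 4 experiments in the order above. Of these, 7 and 8 in U251 RIPSeq came without control library 1 and 2, 5 in U343 RNASeq without miR-137 library 1, and 7 in U343 RIPSeq without miR-137 library 2.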
